A study of Mus musculus with 2084 samples.

Results

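Neuroblasts of the adult mouse ventricular-subventricular zone (vSVZ) were described from single-cell RNA counts, in naive brains and 2 d after ischemia. The cells are those that the labels call neuroblast and that carry a replicate letter other than pF, which leaves out the neuroblasts of the olfactory bulb. There were 178 of them among 1981 cells with both a label and counts, of 2084 labelled cells in all. Cells had been sorted from dissected tissue by surface antigens, and their RNA was read by Smart-seq3 as one layer of an assay that also reads DNA methylation and chromatin. Each letter stands for a biological replicate of 1 or more mice, so p-values measure the spread between letters, and a letter can hold pooled mice.

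The neuroblasts fell into 7 arms. Interferon receptor knockout (KO) mice killed 2 d after occlusion of both carotid arteries gave 76 neuroblasts (letter pJ, labelled TiCY-IFN(A/G)R KO), and naive KO mice gave 8 (also pJ, labelled IFN(A/G)R KO). Naive TiCY mice gave 15 (pM). TiCY is a tamoxifen-inducible Cre line that switches on eYFP in stem cells that express Tlx and in their progeny. Naive wild-type (WT) mice, with neither tamoxifen nor ischemia, gave 20 (pA), 25 (pB), 27 (pC) and 7 (pD). No vSVZ neuroblast in the data used here came from a receptor-intact mouse after ischemia, so ischemia was compared between KO arms, whose genotype labels also differ by TiCY. The sort differed with the letter. In pA, pB and pC, 19, 21 and 22 cells came from a gate named NB and 1, 4 and 5 from one named ASTRO, whereas all neuroblasts of pD, pM and pJ came from gates named for GLAST, an antigen of astrocytes and stem cells. For pM and pJ the tissue label reads striatum and vSVZ together, although the titles name the SVZ. Letter, sort, genotype and cohort therefore cannot be told apart between arms, and comparisons of cell types stayed within WT letters or within the arms of pM and pJ.

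Neuroblasts are the committed neuronal precursors of this niche. Quiescent stem cells (qNSC1 and qNSC2 in the labels) become activated stem cells (aNSC), which give rise to transit amplifying progenitors (TAPs), and these divide and yield neuroblasts that migrate in chains along the rostral migratory stream and become olfactory bulb interneurons, mostly GABAergic. Migrating neuroblasts can still divide, and they carry a doublecortin-rich microtubule cytoskeleton.

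Neuroblasts held 3886 to 1401507 counts per cell, with a median of 208812. Median depth was 652303 in pA and 983396 in pB, against 121067 to 189512 in the other 5 arms, and counts summed over an arm ranged from 901249 (pD) to 23083922 (pB). A count of 3, the limit that a count of 0 allows, equals 0.13 to 3.33 CPM in the sum of an arm (CPM, counts of a gene per 1000000 counts). Intervals and limits of this kind cover counting error only, and a sum cannot tell fewer cells from less RNA per cell. Genes that define other cells of the niche were low. Summed over each arm, 10 microglia genes reached at most 8.38 CPM, 8 oligodendrocyte precursor genes 9.99 CPM, 5 pericyte genes 24.4 CPM, 8 ependymal genes 48.9 CPM, 7 endothelial genes 161 CPM and 10 mature neuron genes 63.0 CPM. The 10 oligodendrocyte genes summed to 17.8 to 361 CPM. The 18 astrocyte and quiescent stem cell genes summed to 708 to 1970 CPM in 6 arms and to 6910 CPM in the 7 pD neuroblasts, and their part in the results of pD was not tested.

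The knocked-out receptors were checked first. The labels name the receptors as IFN(A/G)R without saying which gene or exon was deleted, and a count over a whole gene also takes reads from parts that are left. Ifnar1, a chain of the type I interferon receptor, had 37.2 CPM in KO neuroblasts at 2 d (434 counts in 17 of 76 cells) and 0 CPM in naive KO neuroblasts (limit 1.93 CPM), against 45.9 CPM in TiCY neuroblasts (5 of 15 cells). Ifngr1, the ligand-binding chain of the interferon gamma receptor, had 0.343 CPM and 0 CPM in the same KO arms, against 6.61 CPM in TiCY neuroblasts. Over all labelled cells of these arms Ifngr1 was at 1.08 and 0.162 CPM in KO cells at 2 d and naive, against 25.8 CPM in TiCY cells. Over the same cells Ifnar1 was at 21.4 and 11.4 CPM in KO cells at 2 d and naive, against 53.5 CPM in TiCY cells. Both genes were thus lower in both KO arms over all cells, and Ifnar1 in KO neuroblasts at 2 d was closer to TiCY neuroblasts. Among the second chains, Ifnar2 had 117 and 205 CPM in the KO arms and 77.2 CPM in TiCY neuroblasts, and Ifngr2 had 25.7 and 55.3 CPM against 10.6 CPM. In WT neuroblasts Ifnar1 had 238, 293, 71.4 and 13.3 CPM (pA to pD) and Ifngr1 at most 8.14 CPM.

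The label was checked against 6 neuroblast genes, all of which had counts in all 7 arms. Doublecortin (Dcx), a microtubule-associated protein of migrating neurons, had 562 CPM in KO neuroblasts at 2 d, 461 in naive KO, 655 in naive TiCY and 3640, 4230, 1190 and 244 in WT (pA to pD), and was counted in 173 of 178 cells. TAPs had 47.8 to 411 CPM of Dcx over 6 arms, aNSCs 0 to 8.15, qNSC1 0.42 to 3.5 and vSVZ astrocytes at most 0.0576. The arms of neuroblasts and TAPs overlapped for Dcx only through pD, where 3 of 7 neuroblasts had no Dcx count. Gad2, which makes the transmitter GABA, had 85.4 to 1030 CPM in neuroblasts against 0 to 144 in TAPs. The neuronal tubulin Tubb3 had 176 to 988 CPM against 58.8 to 496, the microtubule regulator Stmn2 739 to 2790 against 0.458 to 1760, and the interneuron transcription factors Dlx1 and Sp9 452 to 1810 against 260 to 975 and 75.5 to 279 against 0.229 to 176. For these 5 genes too the ranges of neuroblasts and TAPs overlapped, and none of the 6 genes exceeded 3.8 CPM in vSVZ astrocytes. The markers match the label outside pD, except that Dlx1 did not separate neuroblasts from TAPs in pC (963 against 975 CPM). In pC Stmn2 was also high in TAPs (2790 CPM in neuroblasts against 1760 CPM). The neuroblasts of pD were at the low end for Dcx, Tubb3, Dlx1, Sp9 and Gad2. Within pD, neuroblasts did not stand apart from TAPs in Tubb3 (176 against 187 CPM), Gad2 (85.4 against 92.8 CPM) or the share of cells with a Dcx count (57.1% against 59.2%), while Stmn2 had 1050 against 239 CPM.

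**Figure D1:**
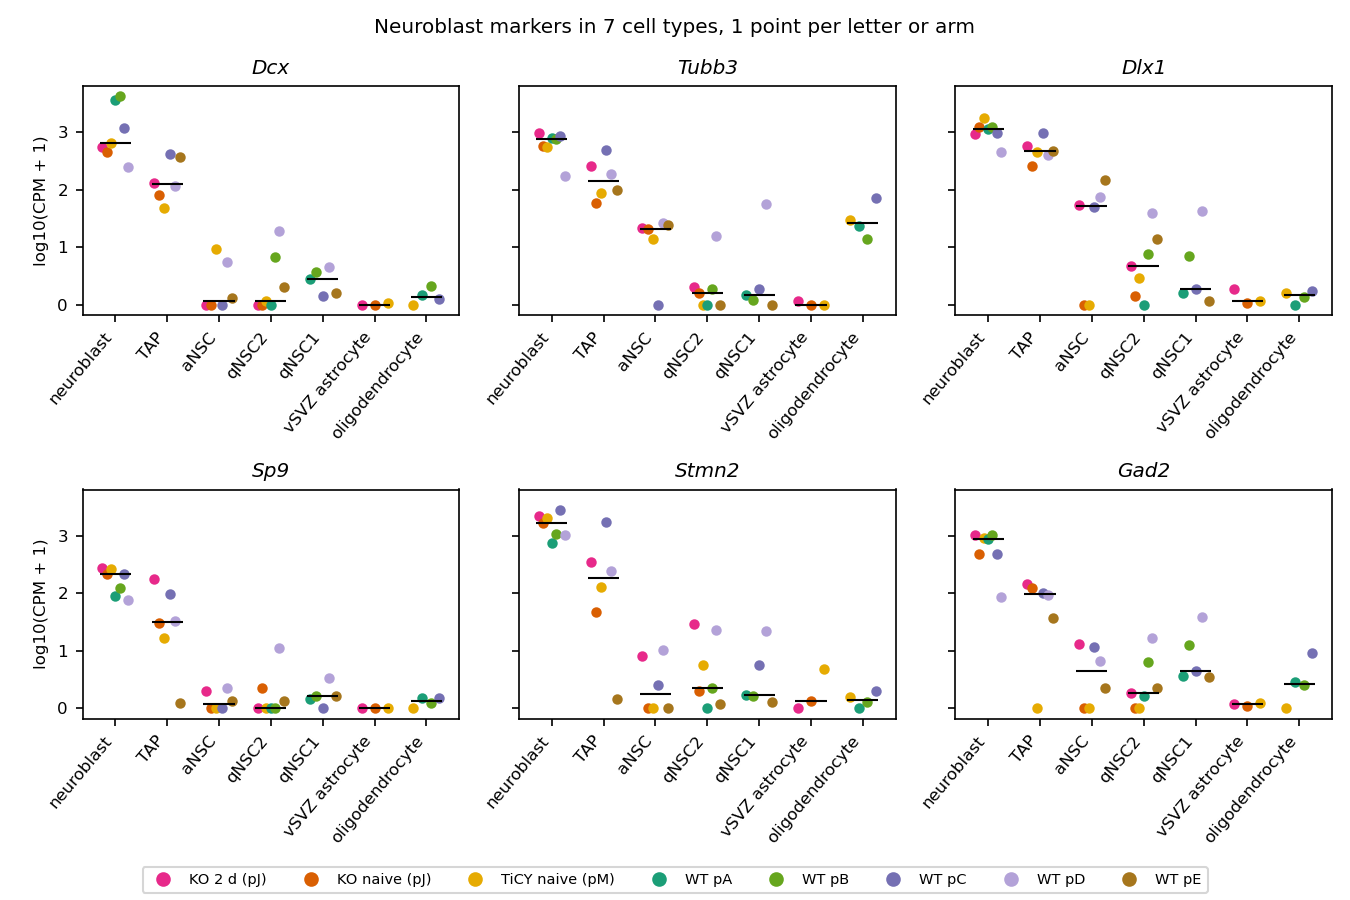
Level of the 6 neuroblast genes in 7 cell types, as log10 of CPM plus 1 on the vertical axis, with 1 point per letter or arm and a black line at the median of the arms. Dcx had 244 to 4230 CPM in neuroblasts, 47.8 to 411 in TAPs and at most 17.9 in the other types.

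The promoter of Dcx is shown because Dcx is the gene most used to name these cells and because distal-less factors such as Dlx1 bind homeodomain cores. It runs from 250 bases before to 50 bases after the annotated start (chrX:143933170-143933469, minus strand, GRCm38.p6, sequence from RefSeq). Capitals mark the homeodomain core TAATTA, searched on both strands.
Dcx: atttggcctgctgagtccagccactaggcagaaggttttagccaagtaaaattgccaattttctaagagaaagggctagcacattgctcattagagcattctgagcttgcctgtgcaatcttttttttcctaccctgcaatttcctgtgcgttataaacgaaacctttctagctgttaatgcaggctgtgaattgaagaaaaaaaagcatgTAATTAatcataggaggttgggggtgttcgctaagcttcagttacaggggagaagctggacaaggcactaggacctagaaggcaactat
This motif was in the promoters of 1 of the 5 marker genes with an entry and in 6.12% of 27025 promoters of the genome. A match describes these letters and not a bound site.

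Wild-type neuroblasts were compared with the other types of the naive WT vSVZ on pooled counts, 1 sum for each type and letter. Types were assigned by the study and may rest on the same transcriptomes, so p-values between types describe how far the types stand apart relative to the spread between letters. Neuroblasts formed 4 sums (pA to pD), TAPs 3 (12, 71 and 3 cells in pC, pD and pE), aNSCs 3 (10, 63 and 3 cells in the same letters) and qNSC1 5 (11 to 57 cells). CPM of single genes in the comparisons of types are normalised with TMM factors, which allow for library composition, while sums over lists and levels of cycling classes are plain CPM, and a gene was called at an edgeR adjusted p of 0.05. Against qNSC1, 698 of 14915 genes were higher in neuroblasts (4.68%) and 1148 lower (7.7%). Against aNSCs, 55 were higher (0.369%) and 142 lower (0.952%). Against TAPs, 2 were higher (0.0134%) and 12 lower (0.0805%). With the letter as a block, 2946 genes were called against qNSC1, against 1846 without it, and 312 against aNSCs, against 197.

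Neuroblasts stood apart from qNSC1 in a broad neuronal programme. Of 15 interneuron transcription factors, 11 were higher and none lower, with a median log2 fold change of 4.18 against -0.17 over all genes tested. Sp8, a zinc finger factor of olfactory interneurons, had 158, 215, 164 and 34.4 CPM in neuroblasts (pA to pD) against 0 in 4 qNSC1 sums and 0.0568 in the other, a log2 fold change of 11.92 ± 1.63 (SE, edgeR adjusted p = 8.03e-05). Dlx2, a patterning factor of ventral forebrain interneurons, had 166, 136, 58.2 and 46.7 CPM against at most 3.58 CPM. Every neuroblast sum lay above every qNSC1 sum for both genes. Groups that do not overlap were a condition for naming genes by their folds, so here and below this describes the values and adds no support. The share of all genes without overlap is not reported here. The SoxC factors of immature neurons moved the same way, Sox11 with a log2 fold change of 4.18 ± 0.80 (edgeR adjusted p = 0.00152) and Sox4 with 5.56 ± 1.60 (adjusted p = 0.0254), as did Myt1, a zinc finger factor of neuronal differentiation, with 7.0 ± 1.27 (adjusted p = 0.000963).

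Cytoskeletal genes rose with them. Of 20 microtubule and growth cone genes, 13 were higher and none lower than in qNSC1 (median 4.69). Map1b, a microtubule-associated protein of growing axons, had 3180, 3110, 2120 and 1140 CPM in neuroblasts against 1.04, 2, 2.99, 88.5 and 0.284 CPM in qNSC1, a log2 fold change of 6.98. The alpha tubulin Tuba1a, the main tubulin of young neurons, had 5470, 5710, 11900 and 11000 CPM against 209 to 1170 CPM. For both genes the lowest neuroblast sum exceeded the highest qNSC1 sum, with the same limit as above. Dcx itself had 3110, 3850, 1120 and 270 CPM in neuroblasts against 0.427 to 4.19 CPM in qNSC1 (log2 fold change 10.04 ± 1.38, edgeR adjusted p = 8.17e-05).

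Guidance and migration genes were mixed. Of 21, 8 were higher and 1 was lower (median 2.42). Plxna4, a semaphorin co-receptor, had 735, 621, 368 and 432 CPM in neuroblasts against 1.47 to 37.2 CPM in qNSC1 (log2 fold change 5.04 ± 1.10, edgeR adjusted p = 0.00393). Slit1, a repellent ligand that migrating neuroblasts release, had 284, 184, 94 and 419 CPM against at most 24.6 CPM. Prokr2, the prokineticin receptor needed for neuroblasts to reach the bulb, had 174, 289, 22 and 0 CPM against 0.427 to 3.86 CPM (5.67 ± 1.21, edgeR adjusted p = 0.00337). Its level in pC and pD was thus far below that in pA and pB. The lower gene was Dab1, the adaptor of the reelin receptors, with 25.3, 29.4, 6.35 and 4.91 CPM against 103 to 301 CPM (-3.66 ± 0.94, adjusted p = 0.0126). The slit receptor Robo2 (639, 492, 150 and 0 CPM against 3.14 to 127 CPM) and the netrin receptor Dcc did not pass the test (adjusted p = 0.141 and 0.28).

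Genes of GABA signalling and of neuronal maturation were already present. Of 11 GABA genes, 4 were higher than in qNSC1 and none lower. Gad1, the other GABA-synthesising enzyme, had 883, 537, 295 and 87.2 CPM in neuroblasts against 0.284 to 12.2 CPM in qNSC1 (log2 fold change 5.93 ± 1.27, edgeR adjusted p = 0.00392). Of 18 maturation genes 8 were higher and 1 was lower. Neuronal genes also passed against aNSCs. Gad1 was at 0 CPM in all 3 aNSC sums and at least 1860-fold higher in neuroblasts when the limit of 3 counts over the group stands in for 0 (edgeR adjusted p = 0.00719). Nav3, a neuron navigator, was at least 1380-fold higher (adjusted p = 0.0231) and the sodium channel Scn3a at least 450-fold (adjusted p = 0.0232), both from 0 CPM in aNSCs. Gad2 had 751, 940, 453 and 94.6 CPM in neuroblasts against 8.92, 6.21 and 1.06 CPM in aNSCs (log2 fold change 6.72 ± 1.47, adjusted p = 0.0231). The calcium channel subunit Cacna1c and the synaptic adhesion gene Nrxn3 also rose, Nrxn3 with 863, 984, 816 and 276 CPM against 5.1, 11.9 and 2.66 CPM. Of the 28 listed or named genes called against aNSCs, 27 kept the call without pD but 4 or 5 without pA, pB or pC, and 2 kept it without each letter in turn, Slc1a3 and the neural stem cell gene Fam107a.

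Astrocyte genes and genes of glial metabolism were low in neuroblasts. Of 18 astrocyte and quiescent stem cell genes, 17 were lower than in qNSC1 and none higher (median -5.91). Slc1a3, the glutamate transporter known as GLAST that the sorts used, had 32.1, 40.3, 16.1 and 172 CPM in neuroblasts against 9090, 7530, 6430, 5700 and 8910 CPM in qNSC1 (log2 fold change -6.87 ± 0.70, edgeR adjusted p = 3.15e-06). It was also lower than in aNSCs (1530, 1080 and 1320 CPM), by -4.34 ± 0.64 on the log2 scale. Clu, the lipoprotein clusterin, had at most 14.7 CPM against 4040 to 7660 CPM, and the citrate transporter Slc13a5 was at 0 in all 4 neuroblast sums, at least 1840-fold lower. Maob, a monoamine oxidase, had 0.0395 CPM in pB and 0 elsewhere against 59.4 to 266 CPM (-12.15 ± 1.11, adjusted p = 1.54e-06). The highest neuroblast value for Slc1a3 and for Clu was that of pD.

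Glycolysis genes were lower for 7 of 16 members against qNSC1 and higher for none (median -1.92). Aldoc, the brain aldolase of astrocytes, had 0.722, 2.53, 8.89 and 125 CPM in neuroblasts against 2570 to 6630 CPM in qNSC1, and Eno1, an enolase, 59.1, 60.2, 49.1 and 108 CPM against 410 to 669 CPM (log2 fold change -3.00 ± 0.47, edgeR adjusted p = 0.000285). The glucose transporter Slc2a1 had at most 2.46 CPM against 108 to 157 CPM (-6.53 ± 0.77, adjusted p = 2.42e-05), and the angiogenic factor Vegfa at most 8.89 CPM against 175 to 405 CPM. In cholesterol synthesis 4 of 18 genes were lower and none higher, with Msmo1, a sterol oxidase, at 9.97, 9.91, 22.6 and 27 CPM against 215 to 997 CPM. None of 20 oxidative phosphorylation genes was called in either direction. Ribosomal protein genes had a median of 1.91 and 5 of 30 were higher, but their level differed among the neuroblasts themselves, from 5600 and 7750 CPM in pA and pB to 27100 in pC and 42200 in pD.

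Notch genes were called in both directions. The target Hey1 and the receptor Notch2 were lower than in qNSC1, Hey1 with at most 0.0656 CPM in neuroblasts against 14.3 to 75.6 CPM (log2 fold change -9.68 ± 1.84, edgeR adjusted p = 0.00162) and Notch2 with 44, 2.64, 1.69 and 133 CPM against 248 to 366 CPM. The ligand Dll1 was higher at low levels, with 8.4, 3.16, 5.71 and 0 CPM against at most 0.175 CPM. The fringe enzymes, which add sugars to Notch receptors, went opposite ways. Mfng had 44, 27.9, 65 and 51.6 CPM against at most 8.2 CPM (4.82 ± 1.41, adjusted p = 0.029), and Lfng 1.05, 13.3, 0.423 and 3.68 CPM against 43.5 to 197 CPM (-4.12 ± 1.03, adjusted p = 0.0111). In all, 2 of 13 Notch genes were called higher and 4 lower. Of the 140 listed or named genes called against qNSC1, 63 kept the call without each letter in turn, among them Dcx, Sp8, Dlx2, Map1b, Tuba1a, Gad1, Plxna4, Slc1a3, Clu, Maob, Slc2a1 and Hey1. Sox4, Slit1, Prokr2, Dab1, Dll1, Mfng, Lfng and Notch2 each lost it without at least 1 letter (66 to 123 genes kept it without a given letter).

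Against TAPs, the neighbouring stage, edgeR called few genes in WT neuroblasts, whereas DESeq2 on the same sums called 151 higher and 156 lower. The 2 higher genes were Csrnp3, a nuclear factor, with 63.9, 136, 15 and 79.8 CPM in neuroblasts against 0, 1.01 and 0.419 CPM in TAPs (log2 fold change 7.04 ± 1.38, edgeR adjusted p = 0.0434), and Prokr2 with 174, 289, 22 and 0 CPM against 0, 0.289 and 0 CPM (9.70 ± 1.90, adjusted p = 0.0434). Csrnp3 lay above TAPs in every neuroblast sum and Prokr2 in 3 of 4. None of the markers passed, and the markers had a median of 1.34. The 24 S phase genes had a median of -2.01 with 23 below 0, and the 35 G2 and mitosis genes a median of -1.43 with 33 below 0, beside 0.07 over all genes, without a called member. The number of calls turned on the letters. Without pD 84 genes were called, and without pB none (edgeR at 0.05), with 1 to 6 genes called without each other letter. Csrnp3 missed the threshold without any 1 letter (adjusted p = 0.0687 to 0.368) and Prokr2 without any but pD (adjusted p = 0.251 to 0.389, and 0.0138 without pD). With the letter as a block neither passed (adjusted p = 0.058 and 0.0683). With only pA, pB and pE, which hold the 2 deep neuroblast sums and a TAP sum of 3 cells, 353 genes were called, and with only pC and pD none.

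Neuroblasts of the KO and TiCY mice were compared with the other types of their own arms. The 3 arms (KO 2 d, KO naive, TiCY naive) each gave neuroblast, TAP, aNSC, qNSC2 and vSVZ astrocyte sums, and the arm was a term in the fit, so the test reads the type difference against its spread over arms that differ in genotype and ischemia and of which 2 share pJ. TAP sums held 21, 9 and 8 cells. Neuroblasts had 180 of 15677 genes higher than TAPs (1.15%) and 531 lower (3.39%). Against qNSC2, 706 were higher (4.5%) and 1634 lower (10.4%). Whether the difference from TAPs was larger here than in WT was not tested. The WT letters stand apart in what was counted, as 8 long noncoding RNAs summed to 5350 CPM in KO neuroblasts at 2 d, 6270 in naive KO and 7240 in TiCY neuroblasts but to 1.11 to 36.3 CPM in WT neuroblasts.

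Genes of the cell cycle were lower than in TAPs. Of 35 G2 and mitosis genes 26 were lower (median -6.93) and of 24 S phase genes 11 (median -4.26), with none higher, beside a median of -0.11 over all genes (-0.19 with RLE size factors). Top2a, the topoisomerase that untangles mitotic chromosomes, had 4.06 CPM in KO neuroblasts at 2 d, 0 in naive KO and 1.34 in naive TiCY neuroblasts, against 1850, 2060 and 3610 CPM in TAPs of the same arms (log2 fold change -9.67 ± 1.07, edgeR adjusted p = 0.000169). Mki67, the proliferation antigen, had 0.949, 0 and 2.67 CPM against 1640, 948 and 3000 CPM (-11.18 ± 1.83, adjusted p = 0.00305). Hmgb2, a chromatin protein abundant in dividing progenitors, had 105, 25.5 and 273 CPM against 4580, 4920 and 5250 CPM (-5.54 ± 0.56, adjusted p = 8.7e-05). No arm overlapped for these 3 genes, which describes the values only, as the share of all genes without overlap is not reported here. The cyclin Ccnb1, which starts mitosis, was at 0 in all 3 neuroblast sums and at least 518-fold lower, and the cohesin acetyltransferase Esco2 at least 1850-fold lower.

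S phase and G1 genes followed in part. Rrm1, the large subunit of ribonucleotide reductase, had 95.2, 112 and 47.3 CPM in neuroblasts (KO 2 d, KO naive, TiCY) against 505, 421 and 494 CPM in TAPs (log2 fold change -2.43, edgeR adjusted p = 0.00905). The sliding clamp Pcna had 30.6, 83 and 37 CPM against 337, 202 and 321 CPM (-2.51 ± 0.55, adjusted p = 0.017), the chromatin helicase Hells was lower by -5.66 ± 1.23 (adjusted p = 0.0166) and the licensing factor Cdc6 was at least 198-fold lower. Among G1 regulators Cdk6 (54, 0 and 27.2 CPM against 717, 282 and 529 CPM) and Ccnd1 (2.59, 1.16 and 0 CPM against 55.5, 40.7 and 88.1 CPM) were lower. Ccnd2, the cyclin D of late neuronal progenitors, had a high level in both types, with 9040, 5750 and 5570 CPM against 12700, 4840 and 6500 CPM (-0.20 ± 0.25, adjusted p = 0.724). Against qNSC2, Ccnd2 was higher by 3.00 on the log2 scale (825, 719 and 925 CPM in qNSC2).

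The promoters of 4 of these genes are shown because their lists fell together against TAPs. They were taken, by level in TAPs, from genes called lower whose promoter holds the marked motif. The motif in each promoter shown was thus fixed by the choice, and the shares below are over whole lists. Capitals mark TTTGAA on either strand, the core of the element through which mitotic genes are repressed outside division, in Hmgb2 (chr8:57511593-57511892, plus strand), Top2a (chr11:99024140-99024439, minus strand) and Mki67 (chr7:135716330-135716629, minus strand), and the E2F-like GCGGGAA on either strand in Rrm1 (chr7:102441445-102441744, plus strand), all from RefSeq on GRCm38.p6.
Hmgb2: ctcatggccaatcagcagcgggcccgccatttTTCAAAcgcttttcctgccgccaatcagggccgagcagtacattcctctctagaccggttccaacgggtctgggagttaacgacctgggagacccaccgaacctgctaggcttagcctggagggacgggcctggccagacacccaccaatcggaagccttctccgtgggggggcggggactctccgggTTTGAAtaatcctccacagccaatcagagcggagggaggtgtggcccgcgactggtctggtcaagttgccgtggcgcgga
Top2a: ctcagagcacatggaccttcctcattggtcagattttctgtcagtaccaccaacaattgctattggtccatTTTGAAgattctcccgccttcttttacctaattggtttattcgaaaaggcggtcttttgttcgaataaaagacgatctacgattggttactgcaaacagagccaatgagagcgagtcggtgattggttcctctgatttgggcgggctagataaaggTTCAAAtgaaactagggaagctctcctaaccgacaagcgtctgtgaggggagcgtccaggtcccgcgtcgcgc
Mki67: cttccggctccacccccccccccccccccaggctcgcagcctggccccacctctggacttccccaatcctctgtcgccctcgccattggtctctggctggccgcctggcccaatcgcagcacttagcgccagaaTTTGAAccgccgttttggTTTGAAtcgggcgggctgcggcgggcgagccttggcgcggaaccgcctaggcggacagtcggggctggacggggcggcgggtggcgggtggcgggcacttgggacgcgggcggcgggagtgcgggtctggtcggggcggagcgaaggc
Rrm1: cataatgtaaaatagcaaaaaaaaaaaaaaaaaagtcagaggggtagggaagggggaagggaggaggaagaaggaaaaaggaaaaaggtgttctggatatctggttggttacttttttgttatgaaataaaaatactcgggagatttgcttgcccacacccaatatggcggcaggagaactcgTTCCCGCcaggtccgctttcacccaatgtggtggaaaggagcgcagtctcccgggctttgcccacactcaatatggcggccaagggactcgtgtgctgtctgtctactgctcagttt
TTTGAA was present in the promoters of 21 of 30 G2 and mitosis genes with an entry (70.0%), in 4 of 19 S phase genes (21.1%) and in 20.2% of all 27025 promoters of this length. Among the G2 and mitosis genes it was in 15 of the 22 called lower in neuroblasts (68.2%) and in 6 of the 8 not called (75.0%). GCGGGAA was in 8 of 19 S phase genes (42.1%), in none of the 30 G2 and mitosis genes and in 5.29% of all promoters. The CCAAT box was in 73.3% of the G2 and mitosis genes and 73.7% of the S phase genes, against 41.1% of all.

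Progenitor genes were lower as well. The growth factor receptor Egfr had 0, 0 and 6.24 CPM in neuroblasts (KO 2 d, KO naive, TiCY) against 100, 309 and 489 CPM in TAPs (log2 fold change -7.86 ± 1.08, edgeR adjusted p = 0.00086). Fabp7, a fatty acid binding protein of radial glia, had 2.16, 0 and 0 CPM against 170, 1790 and 413 CPM (-9.17 ± 1.11, adjusted p = 0.000327). Both were near or at 0 in each neuroblast sum. Of 16 activated stem cell and TAP genes 5, and of 9 proneural genes 3, were lower and none higher, and 9 of 18 astrocyte genes were still lower than in TAPs.

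Some neuronal genes rose against TAPs in the same arms. Of 20 microtubule and growth cone genes 10 were higher and none lower (median 1.94). In the other neuronal lists most members did not pass, with 2 of 6 markers, 3 of 15 interneuron transcription factors, 2 of 19 migration genes and 2 of 10 GABA genes higher and none lower, and 2 of 17 maturation genes higher and 1 lower. Stmn2 had 2190, 1510 and 2070 CPM in neuroblasts (KO 2 d, KO naive, TiCY) against 338, 43.1 and 123 CPM in TAPs (log2 fold change 4.23 ± 1.05, edgeR adjusted p = 0.0336), and Tubb3 993, 525 and 551 CPM against 246, 54.2 and 82.3 CPM (2.63, adjusted p = 0.0174). Dcx had 565, 416 and 662 CPM against 125, 73.4 and 45.1 CPM and did not pass (2.56 ± 0.86, adjusted p = 0.113). All neuroblast sums lay above all TAP sums for these 3 genes, again without the share over all genes. Plxna4 had 747, 568 and 480 CPM against 46.5, 0 and 8.01 CPM (5.06), and the reelin receptor Lrp8 rose by 1.77 ± 0.47 (adjusted p = 0.0462). Of the transcription factors, Sox4 (4080, 3920 and 2930 CPM against 1470, 308 and 598 CPM) and the homeodomain factor Meis2 (2.29 ± 0.45, adjusted p = 0.00901) passed, and Dlx1, Sp9 and Sp8 did not. Gad1 had 333, 729 and 384 CPM against 60.4, 18.3 and 2.91 CPM (5.05 ± 0.95, adjusted p = 0.00662). Celf4, a neuronal RNA-binding protein, rose by 3.45 ± 0.80 (adjusted p = 0.0244). Of 100 listed or named genes called against TAPs, 22 kept the call without each arm in turn, among them Top2a, Mki67, Hmgb2, Egfr, Fabp7, Apoe, Meg3 and Dlx6os1. Stmn2, Tubb3, Sox4, Gad1, Map1b and Tuba1a each lost it without at least 1 arm. In all, 30 genes kept it without TiCY, 53 without naive KO and 54 without KO 2 d.

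Of 7 long noncoding RNAs 4 were higher than in TAPs and 1 was lower. Meg3, an imprinted transcript, had 1770, 1590 and 3100 CPM in neuroblasts (KO 2 d, KO naive, TiCY) against 40.5, 8.77 and 37.1 CPM in TAPs (log2 fold change 6.11 ± 0.83, edgeR adjusted p = 0.000828). Rian, from the same imprinted cluster, rose by 6.0 ± 1.38 (adjusted p = 0.0224). Dlx6os1, which is transcribed antisense to Dlx6, had 819, 1060 and 1590 CPM against 119, 66.2 and 114 CPM (3.54 ± 0.46, adjusted p = 0.000665), and against qNSC2 it separated the types further, with at most 0.112 CPM in qNSC2 (13.95 ± 0.77, adjusted p = 2.68e-07). Meg3 did not pass against qNSC2, which had 522 to 1080 CPM (1.29 ± 0.67, adjusted p = 0.217). The counting is not stated to use strand, so reads of Dlx6os1 and of genes it overlaps cannot be told apart.

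Against qNSC2, all 6 markers, 13 of 15 interneuron transcription factors and 16 of 20 microtubule genes were higher, and 16 of 18 astrocyte genes were lower. Dcx had at most 0.169 CPM in qNSC2 (log2 fold change 12.99 ± 1.44, edgeR adjusted p = 4.07e-05). Slc32a1, the vesicular GABA transporter, was at 0 in qNSC2 and at least 822-fold higher in neuroblasts (112, 120 and 144 CPM in KO 2 d, KO naive and TiCY), and Dlx5 and Dlx6 were at least 282-fold and 535-fold higher. Thbs4, a matrix protein of stem cells and astrocytes, was at 0 in all 3 neuroblast sums against 760, 681 and 817 CPM, at least 3900-fold lower. Apoe, the lipid carrier, was lower by -8.28 ± 0.59 (adjusted p = 9.89e-07) and the Notch target Hes5 by -10.51 ± 1.47 (adjusted p = 0.000264). Sox2, a factor of neural progenitors, was lower by only -1.11 ± 0.36 (adjusted p = 0.0484), with 341, 187 and 383 CPM in neuroblasts against 668, 883 and 521 CPM. Of 30 ribosomal protein genes 24 were higher (median 1.20, beside -0.54 over all genes, or -0.70 with RLE size factors). Of 158 listed or named genes called against qNSC2, 79 kept the call without each arm in turn, including Dcx, Slc32a1, Dlx6, Dlx6os1, Thbs4, Apoe, Hes5 and Ccnd2 but not Sox2 or Dlx5, and 2 of the ribosomal protein genes.

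The comparisons with quiescent cells in WT (qNSC1) and in pM and pJ (qNSC2) share no samples. Among 12760 genes tested in both, 286 were higher in neuroblasts in both, which is 45.1% of the WT calls and 44.3% of the others. Another 724 were lower in both, 65.1% of the WT calls and 50.5% of the others. Of listed genes 53 were in the first set and 32 in the second. One gene was called in opposite directions, the microtubule-severing enzyme Fign, with 66.3 CPM in WT neuroblasts against 0.588 CPM in qNSC1, and 0.144 CPM in pM and pJ neuroblasts against 51.1 CPM in qNSC2. It was picked for that after its values were seen. For TAPs, 7 of the 12 genes lower in WT neuroblasts were also lower in pM and pJ (58.3%, and 1.38% of the 507 called there), among them the hedgehog effector Gli3, the potassium channel Kcnj10, Thbs4 and Maob.

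**Figure D2:**
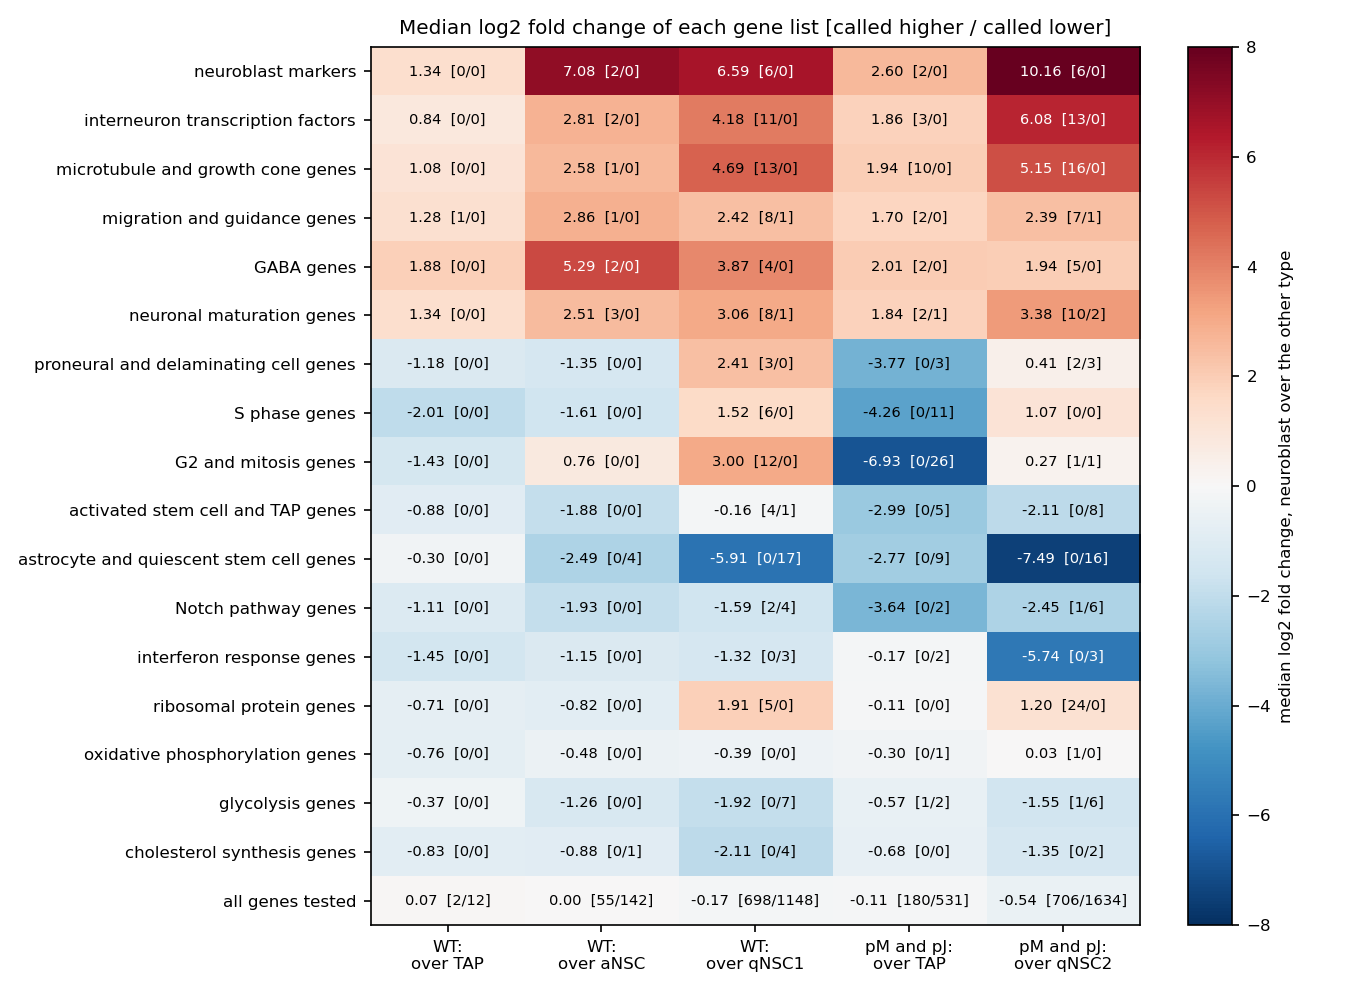
Median log2 fold change of each gene list (rows) in the 5 comparisons of neuroblasts with another type (columns), with the numbers of members called higher and lower in brackets and all tested genes in the last row. The G2 and mitosis genes had a median of -6.93 against TAPs in pM and pJ, with 26 of 35 lower, and of -1.43 in WT, with none called.

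Neuroblasts were then split by their own cycle genes. Each cell was thinned to 50000 counts and called cycling if more than 17.2 of 59 S, G2 and mitosis genes had a count, the 99th percentile of 383 qNSC1, vSVZ astrocyte and oligodendrocyte cells. The other cells are called post-mitotic, and the classes are ranges of a score, with 13 cells within 3 genes of the limit. No cell was cycling among 58 KO neuroblasts at 2 d, 8 naive KO and 12 naive TiCY neuroblasts, which allows shares of up to 5.172%, 37.5% and 25%. In WT 18 of 77 cells were cycling (23.4%), with 3 of 20 in pA (15%), 2 of 25 in pB (8.0%), 8 of 25 in pC (32%) and 5 of 7 in pD (71.4%). The letters differ too much for the pooled share to stand for WT mice, and cells of a letter are not replicates. On unthinned counts, with the limit set in the same way, the shares were 1 of 20 (5.0%), 3 of 25 (12%), 6 of 27 (22.2%) and 1 of 7 (14.3%). The high share of pD was thus seen after thinning and not before it, but unthinned scores are not matched for depth. The unthinned limit also drew on the deeper cells of pA and pB. Thinned to 25000 counts, 5 of 7 pD cells were again cycling (71.4%). The cycle genes had a median of 10136.9 CPM per neuroblast in pD, against 1491.8, 1705.4 and 1575.3 CPM in pA, pB and pC. Left out as too shallow were 18 cells of KO 2 d, 3 of TiCY and 2 of pC. TAPs passed the same limit in 16 of 16 cells of KO 2 d, 6 of 6 of naive KO and 8 of 8 of TiCY. In pC and pD 6 of 8 and 48 of 59 TAPs were cycling. The same limit served all letters, while the score of other types differed between letters. Oligodendrocytes had medians of 11, 11 and 10 genes in pA, pB and pC but 5.5 in pM. Sets of 3 or more qNSC2 cells had medians of 11 to 14 in WT letters and 3 to 6 in pM and pJ. In pD, 4 of 51 qNSC1 and 4 of 33 qNSC2 cells passed the limit. How far these differences moved the cycling shares was not tested. The neuroblasts of pD, pM and pJ all came from gates named for GLAST. Where the label's border with TAP was drawn in each cohort was not tested.

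**Figure D3:**
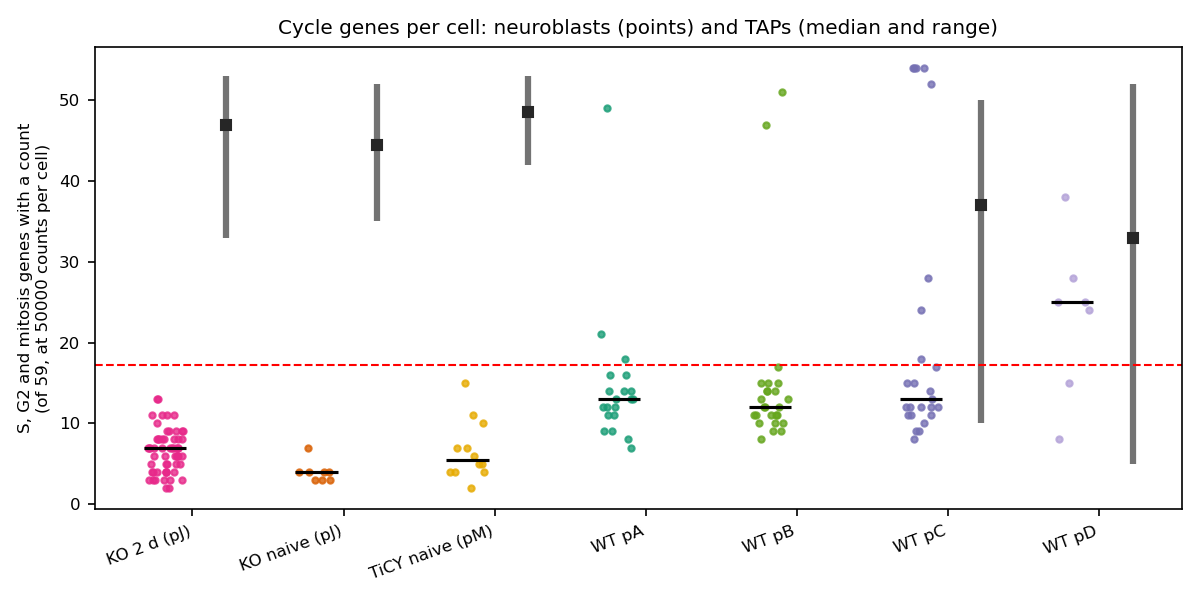
Number of 59 S, G2 and mitosis genes with a count per neuroblast, thinned to 50000 counts (vertical axis), by arm (horizontal axis), with black lines at the medians, grey bars for the median and range of TAPs and a red dashed line at 17.2 genes. Neuroblasts of KO 2 d, naive KO and TiCY had medians of 7, 4 and 5.5 genes with none above the line, and those of pD a median of 25. The line is the same for all arms, although oligodendrocytes had medians of 11, 11 and 10 in pA, pB and pC and 5.5 in pM.

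Between cycling and post-mitotic neuroblasts of the same letter no neuroblast marker passed the test. The test could use pA and pC, which have 3 or more cells of both classes, and has 1 residual degree of freedom. Of the cycling cells, 1 of 3 in pA and 5 of 8 in pC had a count of Mki67, and 2 of 3 and 6 of 8 one of Top2a. With cells thinned to 25000 counts, 1 of 20 cells of pA was cycling. The cycling class of pA is therefore a range of the score rather than a set of cells known to divide. Cycle genes defined the classes and were left out. Of 10730 other genes, edgeR called none higher (0.0%) and none lower (0.0%) at an adjusted p of 0.05, while 463 had an unadjusted p under 0.05 and DESeq2 called 157 higher and 41 lower. Dlx1 differed by 0.48 on the log2 scale (fold of cycling over post-mitotic cells), Tubb3 by 0.49, Sp9 by 0.40, Gad2 by 0.20, Stmn2 by -0.16 and Dcx by -0.36, and the signs of Dlx1, Tubb3 and Stmn2 turned when cells above the 95th percentile were called cycling. Dcx had 3380, 1940, 827 and 116 CPM in cycling cells (pA to pD) against 3690, 4370, 1400 and 690 CPM in post-mitotic cells.

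Migration and GABA genes were mostly lower in cycling cells in value, though none passed the test. The migration list had a median of -0.81 with 17 of 20 below 0 and the GABA list -1.16 with 6 of 9 below 0, beside -0.15 over all genes. The maturation list was mixed, with a median of -0.37 and 10 of 16 below 0. Prokr2 had 0.544, 0, 0 and 0 CPM in cycling neuroblasts (pA to pD) against 237, 337, 32.8 and 0 CPM in post-mitotic ones, where it was counted in 10 of 17, 18 of 23, 6 of 17 and 0 of 2 cells. It had the most negative fold of the migration genes, -8.78 (p = 0.000532 in edgeR's test, adjusted p = 0.366), and it passed with DESeq2 (-8.38, adjusted p = 2.55e-06) and without a filter on low counts (-8.83, adjusted p = 0.000817), but was -0.41 when cells above the 95th percentile were called cycling (adjusted p = 0.995). Gad1 had 812, 406, 103 and 0 CPM against 1070, 601, 441 and 352 CPM, lower in cycling cells of all 4 letters. For this and the following genes pB had 2 cycling cells and pD 2 post-mitotic cells, and 2 of 5 cycling pD cells had a Dcx count. Plxna4 had 589, 409, 150 and 34.3 CPM against 905, 698, 518 and 1630 CPM, and Nrxn3 435, 799, 601 and 81.5 CPM against 1100, 1100, 1030 and 834 CPM, also lower in each letter. Ccnd2 had 4590, 2730, 12100 and 10000 CPM in cycling cells against 2080, 2470, 5850 and 6040 CPM, higher in each letter without passing the test (1.18, adjusted p = 0.407). Sp8 had no common direction, with 451, 672, 88.5 and 12.9 CPM against 142, 208, 212 and 94.3 CPM.

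**Figure D4:**
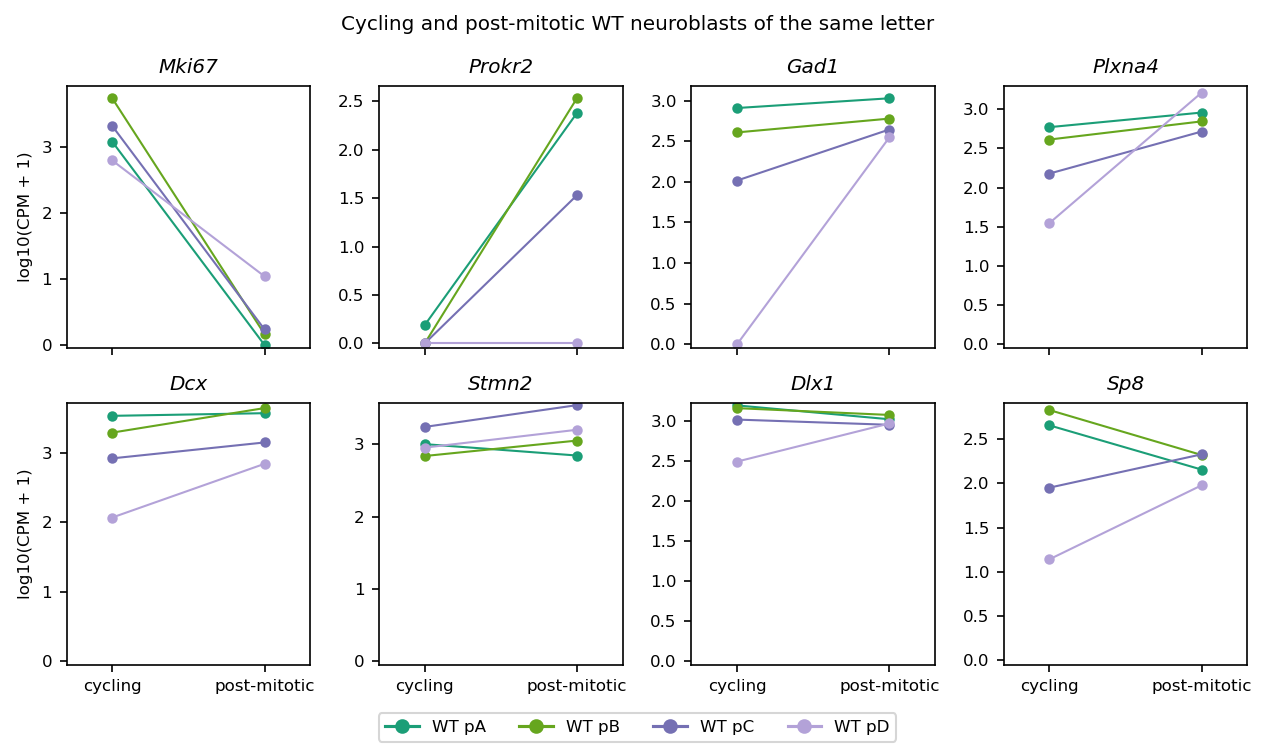
Level of 8 genes, as log10 of CPM plus 1, in cycling (left) and post-mitotic (right) WT neuroblasts, with 1 line per letter. Mki67, which helped to define the classes, had 619 to 5400 CPM in cycling and at most 9.93 CPM in post-mitotic cells, and Prokr2 at most 0.544 against up to 337 CPM. A count of Mki67 was present in 1 of 3, 2 of 2, 5 of 8 and 4 of 5 cycling cells (pA to pD).

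The 7 pD neuroblasts differed from the other WT neuroblasts in several ways. Their 6 markers summed to 2080 CPM, against 6510 to 8450 CPM in pA, pB and pC, and among the 5 cycling cells the sum ranged from 0 to 4460 CPM. Egfr was at 221 CPM, while the ribosomal protein list stood at 42200 CPM. All came from the GLAST gate, and sort, letter and the label's border with TAP cannot be told apart here.

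Ischemia could be compared in 1 pair of arms, 76 KO neuroblasts at 2 d against 8 naive KO neuroblasts, both of pJ, so there was no test. The labels also give the arms different genotypes, TiCY-IFN(A/G)R KO at 2 d and IFN(A/G)R KO in naive mice, so ischemia and that difference cannot be told apart. A gene counted as past the fold if its CPM ratio (5 CPM added to each arm) was at least 1 on the log2 scale, the higher arm had 50 CPM and a count in 25% of its cells, no cell held over 50% of its counts and the Poisson intervals did not overlap. Of 5385 genes that could pass, 1258 were higher at 2 d (23.4%) and 317 lower (5.89%). The arms also differ in the number of cells. Of 11292 genes at 5 CPM or more, 2919 had no count in the 8 naive cells and 76 none in the 76 cells at 2 d, and the median log2 ratio was 0.67. Among 1967 genes with a count in at least 50% of the cells of both arms, 207 were higher (10.5%) and 176 lower (8.95%), with a median of -0.05.

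Microtubule genes stayed within the fold, and single members of other neuronal lists did not. Of 20 microtubule genes none was past it (median 0.01). Of 14 interneuron transcription factors that could pass 2 were higher (14.3%) and 2 lower (14.3%). Of 13 maturation genes 1 was higher (7.7%) and 3 lower (23.1%). Over all genes that could pass, 23.4% were higher and 5.89% lower. The shares of higher members were thus below that of all genes, and the lower members are few. Of the markers only Gad2 was past the fold, with 1018 CPM at 2 d against 482.6 CPM in naive KO neuroblasts (log2 ratio 1.07). Gad1 went the other way with 331.5 CPM against 808.1 CPM (-1.27). Lower at 2 d were also Celf4 with 1002 CPM against 3812 CPM (-1.92), the neuronal RNA-binding protein Elavl4 with 232.6 against 711.0 CPM (-1.59), Sp8 with 135.9 against 329.4 CPM (-1.25) and Cdk5r1, the activator of the migration kinase Cdk5, with 355.9 against 794.6 CPM (-1.15). Naive TiCY neuroblasts had 379.6 CPM of Gad1 and 1879 CPM of Celf4, between or near the 2 d values, so the 8 naive KO cells were the high arm for both. For Gad2 naive TiCY neuroblasts had 919 CPM, near the 2 d value, so the 8 naive KO cells were the low arm. With the mean of per-cell CPM, Gad2 and Cdk5r1 fell short of the fold (0.97 and -0.96). Higher at 2 d were St8sia2, which builds the polysialic acid that the PSA-NCAM antibody reads, with 82.9 against 9.65 CPM (2.58), Dlx6 with 114.3 against 36.67 CPM (1.52) and Hes6, a bHLH factor that promotes neuronal differentiation, with 157.3 against 28.95 CPM (2.26). The ratios of Hes6 in TAPs, aNSCs, qNSC2 and vSVZ astrocytes of the same arms were 1.06 to 2.09.

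Stress and injury genes were mostly too low to be judged. Only 1 hypoxia gene, 3 immediate early genes and 2 interferon response genes reached the 50 CPM needed, and none was past the fold. The medians of members at 5 CPM or more were 1.06, 0.87 and 1.27, beside 0.67 over all genes. Of 5 p53 and apoptosis genes that could pass 1 was higher. In oxidative phosphorylation 5 of 21 genes were higher (23.8%), near the 23.4% over all genes, and in cholesterol synthesis 3 of the 6 that could pass, with none lower in either list. The cholesterol synthesis list summed to 809 CPM at 2 d, 371 CPM in naive KO and 724 CPM in naive TiCY neuroblasts, so naive KO was the low arm. Hspa5, a chaperone of the endoplasmic reticulum, had 146.0 CPM at 2 d against 11.58 CPM in naive KO neuroblasts (3.19), but 366.4 CPM in naive TiCY neuroblasts. The largest ratios in the rule's list were genes without a count in the 8 naive cells, such as the RNA helicase Ddx47 with 260.2 CPM (48 of 76 cells) and the sodium channel Scn8a with 240.6 CPM (54 of 76 cells), against a limit of 1.93 CPM. Some transcripts fell in all types of the pair. Malat1, a nuclear noncoding RNA, had 637.5 CPM at 2 d against 4772 CPM in naive KO neuroblasts (-2.89), and its ratio in the other 4 types was -2.44 to -1.55. The RNA decay gene Smg6 (58.61 against 384.8 CPM) and the helicase Ddx6 (175.2 against 996.6 CPM) fell likewise. Of the 1258 higher and 317 lower genes, 724 and 181 were past the fold in neuroblasts and in none of the other 4 types, and 7 and 11 in all of them. A gene had to meet the same limits of level and detection in each other type, and naive KO gave 9 TAPs and 7 aNSCs. Genes too low there count as not past the fold, so these counts do not show changes particular to neuroblasts.

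The KO was compared with TiCY in naive brains through the same 8 naive KO neuroblasts, against 15 TiCY neuroblasts, so the comparison shares an arm with that of ischemia and also sets pJ against pM. Of 5453 genes, 414 were higher in KO neuroblasts (7.59%) and 828 lower (15.2%), and among 1750 genes counted in at least 50% of both arms 184 were higher (10.5%) and 195 lower (11.1%). Lowest were Tmem181b-ps, a pseudogene, with 5.147 CPM in naive KO against 745.6 CPM in TiCY neuroblasts (log2 ratio -6.21), and Dynlt1b, a dynein light chain, with 36.67 against 1254 CPM (-4.92). The ratio of Tmem181b-ps was -4.92 to -4.61 and that of Dynlt1b -4.82 to -3.11 in TAPs, aNSCs, qNSC2 and vSVZ astrocytes, so the difference was present in every type compared. Both genes have near-identical copies, and counting could have split their reads.

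Immediate early genes were lower in naive KO neuroblasts in value. Their 11 members at 5 CPM or more had a median of -1.60, beside -0.35 over all genes, and 4 of the 5 that could pass were past the fold. Fos, the classic early response factor, had no count in 8 KO cells (limit 1.93 CPM) against 261.5 CPM in 9 of 15 TiCY cells. Its partner Jun had 114.5 against 335.5 CPM (log2 ratio -1.51) and the zinc finger factor Egr1 64.98 against 168.0 CPM (-1.31), with 97.03% of the KO counts of Egr1 in 1 cell. In TAPs and vSVZ astrocytes the ratio of Jun was 1.24 and 1.11. The same list members had medians of 0.38 in TAPs, -1.13 in aNSCs, -0.33 in qNSC2 and 0.41 in vSVZ astrocytes. The lower values were thus not particular to neuroblasts. H2-D1, an MHC class I chain whose expression interferon raises, had no count in the 8 naive KO cells against 119.9 CPM in 6 TiCY cells. It was counted in KO neuroblasts at 2 d, where Ifi27 and H2-D1 led the interferon response list. Ifi27 also led that list in naive KO and TiCY neuroblasts. Of the 4 interferon response genes that could pass, 1 was lower in naive KO and none higher. S100a9, a calcium-binding alarmin of myeloid cells, had no count in naive KO against 246.0 CPM in 11 TiCY cells. Among migration genes Robo2 had 192.4 against 708.1 CPM (-1.85). Higher in KO neuroblasts were Crmp1, a semaphorin signalling protein, with 586.1 against 227.1 CPM (1.35), Nsg2, a neuronal endosome protein, with 1507 against 622.6 CPM (1.27), and Gad1 with 808.1 against 379.6 CPM (1.08), which no longer met the rule with TMM factors between the arms. Kmt2c, a histone methyltransferase, had 9.651 CPM in naive KO neuroblasts, against 160.2 CPM in KO neuroblasts at 2 d and 474.4 CPM in TiCY neuroblasts, so it was low in the 8 naive KO cells alone. With 8 cells in the arm that both comparisons share, and 1 letter a genotype, these values describe the libraries and not the genotype or the injury.

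**Figure D5:**
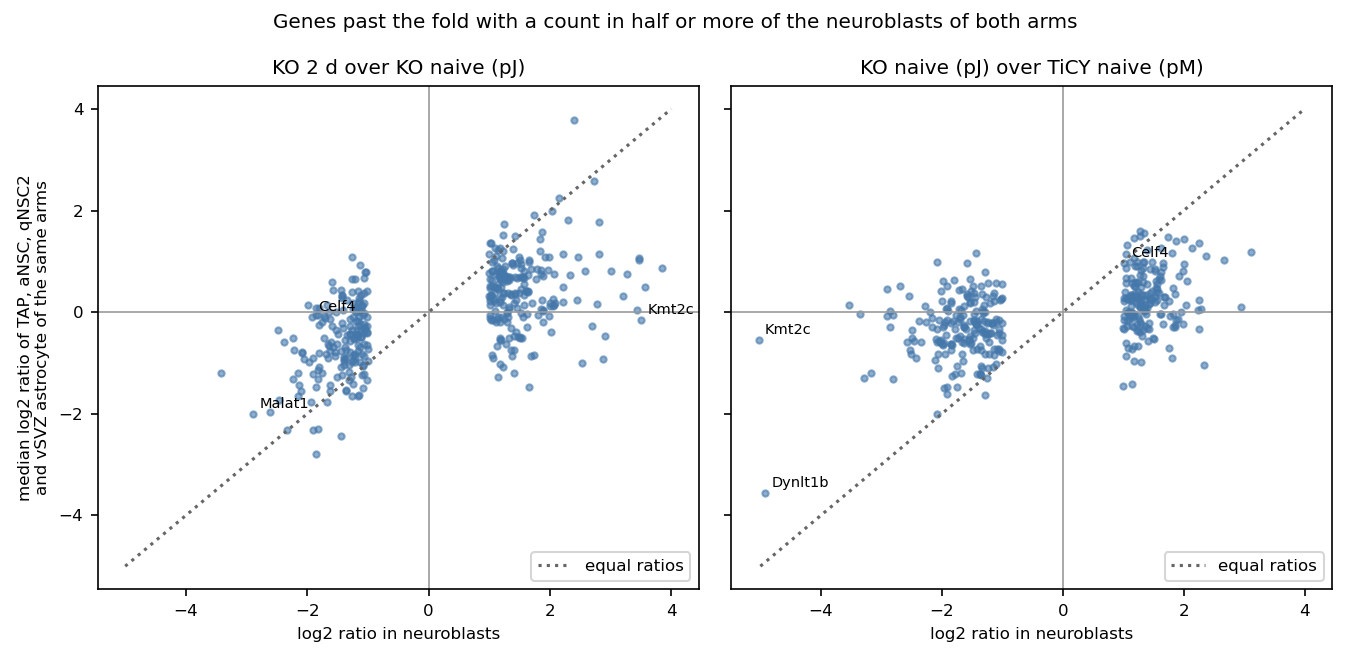
Log2 CPM ratio in neuroblasts (horizontal axis) against the median ratio of TAPs, aNSCs, qNSC2 and vSVZ astrocytes of the same arms (vertical axis), for genes past the fold with a count in at least 50% of the neuroblasts of both arms; left, KO 2 d over KO naive, and right, KO naive over TiCY naive, which share the naive KO arm. Malat1 and Dynlt1b lie near the dotted line of equal ratios, whereas Kmt2c and Celf4 (left) lie near 0 on the vertical axis.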

How the data were processed

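RNA was measured in single cells by Smart-seq3. Per the submitters' processing notes, the authors used STAR and featureCounts with GRCm38 (mm10); no version, annotation or filter is given in the sources used here. The deposited values are raw read counts per gene and cell, checked to be whole numbers. There were 35606 gene identifiers (151 without a symbol, 24 with a shared one) and 2584 rows of cells, 1981 of them with a label; the other 603 were left aside. All 178 neuroblasts had distinct counts.

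Members, gene lists and tests were chosen with earlier results of these data known. For each letter or arm, cells of 1 type were pooled into a sum where there were 3 or more and the sums tested with edgeR 4.0.16 in R 4.3.3 (limma 3.58.1; filterByExpr, TMM factors, quasi-likelihood F test, Benjamini-Hochberg adjustment at 0.05 over all genes tested). The WT fit had 22 sums of 6 types and no block (14915 genes, 16 residual degrees of freedom), the fit of pM and pJ had 15 sums of 5 types and a term for the arm (15677 genes, 8), and the fit of cycling and post-mitotic cells had 4 sums and a term for the letter (10786 genes, 1). Folds are on the log2 scale with SE, and a fold against a group at 0 is a lower bound taken at 3 counts over that group. Named genes were the 8 highest and 8 lowest folds among called genes at 50 CPM or more in the higher group whose groups did not overlap, called members of the lists (or the 2 with the lowest p), the 6 markers and the 4 interferon receptor genes. Genes outside this rule are named in counts of 5 or fewer or where the text says so.

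The design text calls each letter a biological replicate of 1 or more mice, so types of a letter can share mice. Deviations of neuroblast sums from their mean correlated with those of the same letter by 0.289 to 0.502 (TAP, 2 pairs), 0.221 to 0.512 (aNSC, 2) and 0.401 to 0.515 (qNSC1, 4), against medians of -0.0744, -0.0605 and -0.267 for different letters over 10743 genes. Blocked values (letter as block) stand beside the 2 genes called higher than TAPs; the other listed genes whose call the block ended are not named in that comparison.

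Arms of 1 letter were compared without a test, as log2 ratios of CPM with 5 CPM added and exact 95% Poisson intervals. A ratio of at least 1 in size, 50 CPM and a count in 25% of cells in the higher arm were required, with intervals that did not overlap and at most 50% of the counts from 1 cell. Alternatives were DESeq2 1.42.0, RLE size factors, no filter on low counts, the other choice of block, only the 2 types compared, each replicate left out, other limits for cycling cells, other pseudocounts (1 and 10 CPM) and scalings, and, chosen after seeing the data, subsets of letters, sums of 2 cells and a filter on both arms. The edgeR steps were tested on simulated data. Tables and plots used Python 3.11.15, NumPy 2.4.6, pandas 2.3.3, SciPy 1.17.1 and matplotlib 3.10.9. Promoter sequences are those of RefSeq for GRCm38.p6. Some genes of the lists are not reported here.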

Additional observations from a re-analysis of the deposited data

Results flagged for a closer look

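In 52 groups of 4 to 10 sums of the named genes, 15 held a sum that stood apart from the others of its group by more than the 95% critical value of Dixon's gap ratio. That value is set for normally distributed values, whereas the ratio was taken on CPM of genes chosen mostly by their folds. It therefore gives no rate to compare the 15 with. Where 1 sum alone has a count, the flag is certain, as for Maob in pB (0.0395 CPM) and Sp8 in qNSC1 of pE (0.0568 CPM).

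Among the WT neuroblast sums, 7 genes each had 1 sum apart. In pD these were Prrx1 at 7.37 CPM, Pbxip1 at 3.68 CPM and Fam107a at 2.46 CPM. In pC they were Gjc1 at 2.33 CPM and Cldn10 at 0.847 CPM, in pA Rhbdl3 at 2.1 CPM and in pB Maob at 0.0395 CPM.

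Among the qNSC1 sums, 5 of the 6 neuroblast markers had a value apart in pD, with Tubb3 at 65.5 CPM, Dlx1 at 50.6 CPM, Gad2 at 45.4 CPM, Stmn2 at 25.7 CPM and Sp9 at 2.79 CPM. Dcx was also highest in pD among the qNSC1 sums. The neuroblasts of pD had the lowest marker sum of the WT letters. The adhesion gene Igsf9 was apart in pD as well, at 0.175 CPM. Sp8 was apart in pE at 0.0568 CPM and the cytoskeletal gene Add2 in pB at 0.525 CPM.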

How the results depend on the processing

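The counts of called genes depended on tool and letters, and the cause was not tested. DESeq2 called 307 genes for WT neuroblasts against TAPs, 906 against aNSCs, 2879 against qNSC1, 2369 for pM and pJ neuroblasts against TAPs, 4278 against qNSC2 and 198 between cycling and post-mitotic cells. The replicate block gave 312 against aNSCs and 2946 against qNSC1, and changed the call of 2, 4 and 2 of the named or listed genes against TAPs, aNSCs and qNSC1. With no replicate block in pM and pJ, 27 of 100 such calls were lost against TAPs and 29 of 158 against qNSC2. With only the 2 types in the fit, no gene was called against TAPs and 55 against aNSCs. In subsets chosen after seeing the data, pA, pB and pE gave 353 (TAPs) and 311 (aNSCs), and pC with pD gave 0, 0 and, against qNSC1, 197. Leaving out 1 replicate gave 0 to 84 against TAPs, 17 to 393 against aNSCs, 751 to 2177 against qNSC1, 162, 355 and 447 (without TiCY, naive KO and KO 2 d) for pM and pJ against TAPs, and 829, 1473 and 1167 against qNSC2. Without a filter on low counts 1416 genes were called for pM and pJ against TAPs and 75 between the cycling classes.

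Cycling calls numbered 1 with cells above the 95th percentile called cycling and 28 with sums of 2 or more cells (chosen after seeing the data). Under the 95th percentile the log2 folds of markers changed sign to -0.01 (Tubb3), -0.04 (Dlx1) and 0.02 (Stmn2), and with sums of 2 or more cells to -0.36 (Tubb3) and -0.48 (Gad2), none of which passed in any of the fits run. The share of cycling WT cells was 36.4% with the 95th percentile and 13.9% on unthinned counts. Classes thinned to 25000 counts and the classes without pA or pC could not be fitted. Asking for a count in 50% of both arms left 383 genes past the fold for KO 2 d over KO naive and 379 for KO naive over TiCY; the other alternatives for the arms kept these counts within 1.5 times. For single named or listed genes 3640 alternative values kept direction and call, 1000 lost and 20 gained the call, 21 no longer met the fold, level or detection rule of the arms and 5 changed sign.

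Depth limits low genes in pD and naive KO, where 3 counts equal 3.33 and 1.93 CPM. Types were assigned by the study, sorts and libraries differ between letters, and each of the arms of KO and TiCY is 1 letter.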

Other observations

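The MHC class I gene H2-K1 had no count in 6 of 7 arms and 17.6 CPM in pA, against 46.2 to 113 CPM in qNSC1, and the antigen transporter Tap1 had none in any arm.

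Mog, a myelin glycoprotein gene that defines oligodendrocytes, had 6.31 to 108 CPM in 6 of 7 neuroblast arms and was counted in 78 cells, with none in pD. TAPs had 0 to 11.4 CPM and oligodendrocytes 908 to 1850 CPM.

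Among regional factors of the niche, the dorsal factor Emx1 and the ventral factors Dbx1 and Lhx8 had no count in neuroblasts, nor had the glutamatergic factors Neurog2 and Neurod2. Other members of the regional list were counted. Emx2 led that list in pD and came after Pax6 in pC, and Zic1 led it in TiCY. The ventral factor Nkx2-1 reached 0.901 CPM and Gsx2 7.77 CPM. Pax6, which marks a dopaminergic and periglomerular lineage, had 8.88 to 203 CPM and was counted in 71 cells. The mature bulb markers Calb2 and Th were counted in 1 and 3 cells.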
